A study of Mus musculus with 15 samples.

Results

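D4PGCLCs, the primordial germ cell-like cells collected on day 4 of induction, were compared with naive ESCs over all genes in a mouse RNA-seq series. The comparison used every sample that the labels place in either group, 3 D4PGCLC and 3 ESC samples of 15 in all. The other 9 samples, 3 each of EpiLCs, D2PGCLCs and D6PGCLCs, entered the fit only to estimate the spread between replicates, and the EpiLC and other PGCLC groups are set beside day 4 where stated. The groups came from engineered mouse ESCs with a *Stella*-eGFP reporter and doxycycline-inducible *Prdm1*, *Prdm14*, *Tfap2c* and *Nanog*. The paper does not say whether 1 clone gave every group. ESCs were kept with LIF and inhibitors of MEK and GSK3 in serum-free medium. PGCLCs were made by first turning ESCs into EpiLCs with Activin A and bFGF, then aggregating them with doxycycline but without cytokines, and the Stella-eGFP+ fraction was sorted.

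Transgenes for *Prdm1*, *Prdm14* and *Nanog* were carried on piggyBac vectors together with the doxycycline-controlled transactivator, that for *Tfap2c* on a lentivirus, and the lines were clonal. The controls carry the same transgenes, but medium, doxycycline, aggregation, sorting and time in culture all changed together between ESCs and D4PGCLCs, so that their parts cannot be told apart. The counts do not separate transgene from endogenous transcripts. The labels do not say whether replicates were separate cultures, and p-values measure the spread between these samples, which may be technical. In bulk RNA, fewer cells of a type and less RNA per cell cannot be told apart.

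Primordial germ cells are the founders of sperm and eggs, and arise in the mouse from the post-implantation epiblast. *Prdm1* represses somatic genes, *Prdm14* maintains pluripotency genes and the low-methylation state, and *Tfap2c* acts with both. Naive ESCs resemble the pre-implantation epiblast, and their self-renewal rests on LIF signaling through STAT3, on WNT signaling and on a low activity of the ERK kinases, which the GSK3 and MEK inhibitors of their medium enforce.

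Gene counts summed to 22555021 to 29790085 in the ESC samples and to 32146690 to 34245229 in the D4PGCLC samples. A floor of 3 counts corresponded to 0.101 to 0.132 CPM (counts scaled to library size, with edgeR's TMM factors) in ESCs and to 0.0859 to 0.091 CPM in D4PGCLCs. Spread between replicates exceeded sampling noise, as the chi-square per gene was 8.816 to 17.338 in ESCs and 28.510 to 44.614 in D4PGCLCs. Of 9116 genes with a mean of at least 10 CPM in D4PGCLCs, replicate 2 was over 1 log2 unit above the mean of the other 2 replicates for 24 genes and below it for 1, replicate 3 above for 7 and below for 16, and replicate 1 above for 2. *Ldha* and *Slc16a3* of glycolysis were among the 24. In D6PGCLC replicate 1, 18061 genes had a read, against 24144 and 24343 in the other 2 D6PGCLC libraries, and leaving it out of the fit gave 2706 higher and 2211 lower genes in D4PGCLCs than in ESCs.

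Among the 18090 genes tested, 2518 were higher (13.9%) and 1963 lower (10.9%) in D4PGCLCs than in ESCs, by edgeR's quasi-likelihood test at an adjusted p under 0.05 and a change of over 1 log2 unit. Counts of called list members below are to be read beside these shares, since several lie close to them. The median log2 fold change of all genes tested was 0.007. The replicates of both groups did not overlap in 10983 of the 18090 genes (60.7%), whether called or not. The gained genes were mostly scarce in ESCs, with a median of 0.853 CPM there and 4.08 CPM in D4PGCLCs. They took 1.88 to 1.90% of the counts in ESCs and 5.92 to 6.19% in D4PGCLCs. Genes lower in D4PGCLCs had a median of 4.98 CPM in ESCs and 1.12 CPM in D4PGCLCs. Protein-coding genes made up 2205 of the higher and 1461 of the lower genes. Noncoding lincRNAs were called in near-equal numbers, 129 higher and 138 lower of 679 tested.

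*Cyp1b1*, a cytochrome P450 that oxidizes retinoids, steroids and xenobiotics, had the highest fitted change among abundant protein-coding genes. It measured 0, 0 and 0.0335 CPM in the 3 ESC samples and 26.3, 22.8 and 20.0 CPM in the D4PGCLC samples. The ESC value rests on 1 read, and the ratio was 1839.8 with a 95% interval of 330 to 72697.7 for counting error only (adjusted p = 4.24e-12). The LIM homeobox gene *Lhx1* measured 0, 0.0438 and 0.0335 CPM in ESCs and 13.2, 10.0 and 11.5 CPM in D4PGCLCs. Its 2 reads in ESCs gave a ratio of 463 (95% counting interval 128 to 3826.9). Both genes were thus close to absent in ESCs and present in each day 4 sample.

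The adhesion receptor *Adgrf5* (log2 fold change 8.28 ± 0.42 SE), the WNT ligand *Wnt7b* (8.07 ± 0.49) and the receptor phosphatase *Ptpre* (7.64 ± 0.53) followed. The homeobox genes *Rhox9* and *Rhox6*, which are expressed in germ cells and placenta, had the highest levels of the 12, with D4PGCLC values of 109 to 158 and 102 to 132 CPM, respectively, against at most 1.28 CPM in ESCs. *Chdh*, the mitochondrial choline dehydrogenase, the interferon-inducible *Oasl2*, *AU015836*, *2610528J11Rik* and *Tcim* completed the 12, with log2 fold changes of 6.45 to 6.76.

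At the other end stood *T* (Brachyury), the mesoderm factor and direct WNT target. It measured 14.8, 15.2 and 14.5 CPM in ESCs and 0, 0.0904 and 0 CPM in D4PGCLCs. Its 3 reads over all D4PGCLC samples gave a ratio of 499 in favour of ESCs (95% counting interval 170 to 2421.9, adjusted p = 3.66e-09). Next came *Sp5*, a zinc-finger WNT target, at 35.6 to 37.4 CPM in ESCs and 0.121 to 0.301 CPM in D4PGCLCs (log2 fold change -7.36 ± 0.41 SE). The homeobox gene *Nkx1-2* followed with -7.33 ± 0.29, and the growth factor gene *Fgf10* with -7.26 ± 0.49. Most of the other 8 are known from differentiated tissues, among them troponin *Tnni1* (-6.51), the neurofilament gene *Nefm* (-6.13), the channel genes *Cnga4* and *Trpm1* (-5.68 and -5.35), the eye and kidney factor *Eya1* (-5.53), the protease inhibitor *Serpinb1a* and the gut glutathione peroxidase *Gpx2* (-5.37). The paternally expressed imprinted factor *Plagl1* was the most abundant of the 12 in ESCs, and measured 172 to 201 CPM there and 3.16 to 4.47 CPM in D4PGCLCs.

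**Figure D1:**
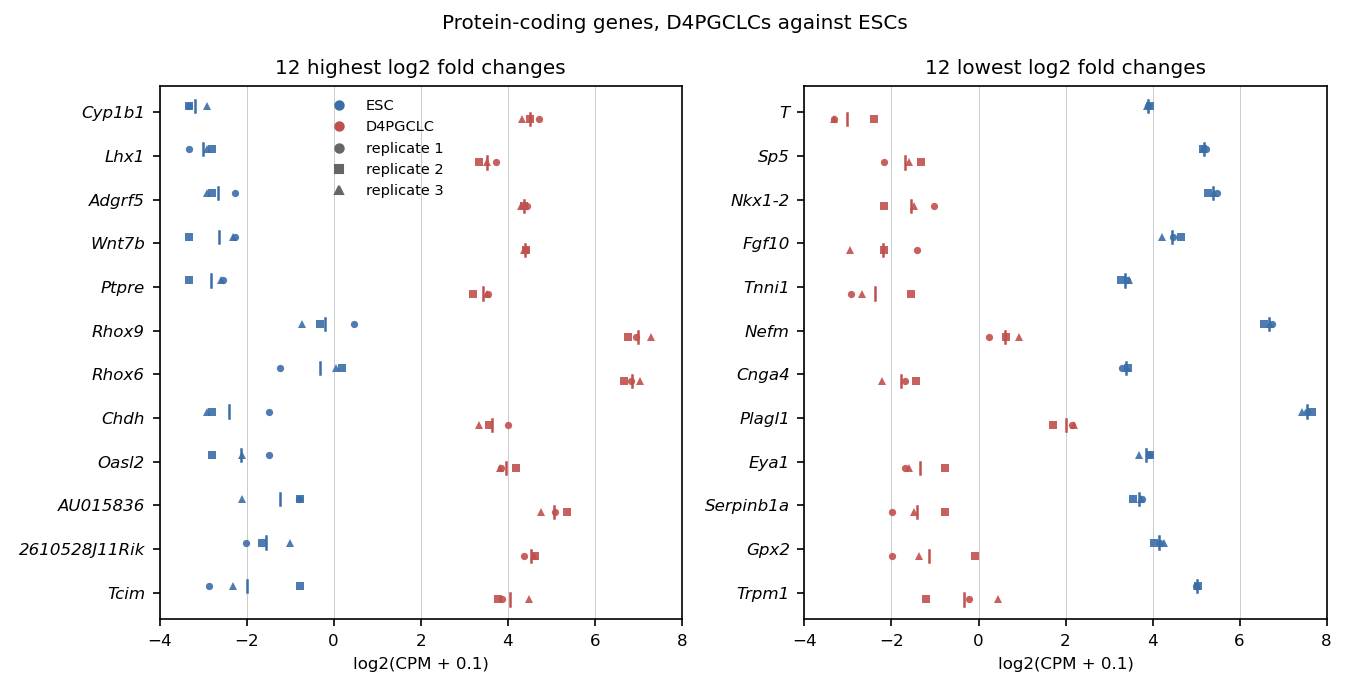
Expression of the 12 protein-coding genes with the highest (left) and the 12 with the lowest (right) log2 fold change, as log2(CPM + 0.1) on the x axis, in 3 ESC (blue) and 3 D4PGCLC samples (red), with symbols for replicates and vertical ticks for group means. No gene shows an overlap of the groups, which the rule that chose them required, and *Rhox9*, *Rhox6*, *Nefm* and *Plagl1* have the highest levels on their side.

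Among noncoding genes, the imprinted *H19* on chromosome 7 (142575529 to 142578143, mm10) measured 0.073 to 0.201 CPM in ESCs and 124, 160 and 109 CPM in D4PGCLCs, a log2 fold change of 9.99 ± 0.37 SE. *Halr1*, which lies at the *Hoxa* cluster, was 3.54 higher on the same scale. The other 3 of the 5 noncoding genes selected were lower, *1700097N02Rik* by -4.92, *Gm49089* by -3.76 and *Mir142hg* by -3.55. *H19* had means of 119 CPM in EpiLCs, 458 ± 126 (SD, n = 3) in D2PGCLCs and 200 ± 55.4 in D6PGCLCs.

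Of the 4 factors carried as transgenes, 3 were higher in D4PGCLCs. *Prdm1* (chromosome 10, 44437177 to 44528501) measured 11.3, 10.8 and 10.4 CPM in ESCs and 108, 85.9 and 89.3 CPM in D4PGCLCs, a log2 fold change of 3.12 ± 0.12 SE (adjusted p = 2.90e-13). *Tfap2c* (chromosome 2, 172549593 to 172558622) rose from 37.9 to 41.7 CPM to 189 to 214 CPM, by 2.35 ± 0.08. *Prdm14* rose less, from 41.9 to 46.4 CPM to 84.3 to 98.4 CPM. Its log2 fold change of 1.01 ± 0.11 lay at the cutoff. With DESeq2's size factors in place of TMM it was 0.98 and no longer called. In EpiLCs, which come before doxycycline, the means were 71.6 CPM for *Prdm1*, 96.4 CPM for *Prdm14* and 56.1 CPM for *Tfap2c*. Against EpiLCs, *Tfap2c* was called higher in D4PGCLCs, and *Prdm1* and *Prdm14* were not called.

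For *Nanog* no change was called. It measured 689, 698 and 686 CPM in ESCs and 691, 851 and 760 CPM in D4PGCLCs, and the groups overlapped. Its fitted difference was 0.15 ± 0.11 on the log2 scale (adjusted p = 0.251). Per kilobase of exon *Nanog* was the most abundant of the 4 in both groups, at a mean of 342 RPKM in D4PGCLCs against 54.8 for *Tfap2c*, 35.2 for *Prdm14* and 16.9 for *Prdm1*.

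The germ line lists share some members, such as *Dppa3*, *Mael* and *Ddx4*. Of 20 early germ cell genes tested, 15 were higher, 1 was lower and 4 were not called, with a median log2 fold change of 1.85 against 0.007 over all genes. Among the 15 were the transgene factors *Prdm1*, *Prdm14* and *Tfap2c* and the gene used for sorting, *Dppa3*. The count and the median thus reflect in part how the cells were made. The reporter's own gene *Dppa3* (Stella), which protects DNA methylation of the maternal genome in the zygote, measured 55.5, 55.7 and 50.5 CPM in ESCs and 406, 424 and 515 CPM in D4PGCLCs (log2 fold change 3.06 ± 0.12 SE). Cells were sorted on this gene's promoter activity, so its rise in the sorted cells is part of how the group was made. At 503 RPKM it was among the most abundant germ cell transcripts per length.

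*Itgb3*, the integrin known as CD61 and used to sort PGCLCs, rose from 7.55 to 8.98 CPM to 141 to 172 CPM, by 4.25 ± 0.11, the highest change of the early list. The chemokine receptor *Cxcr4*, which guides germ cell migration, rose by 3.67 ± 0.28 to at most 10.8 CPM. The RNA-binding factors *Dnd1* and *Nanos3*, which keep migrating germ cells alive, rose by 2.46 ± 0.14 and 2.52 ± 0.26. *Kit*, the receptor for the survival factor SCF, was already at 141 to 163 CPM in ESCs and reached 286 to 338 CPM. The surface proteins *Ifitm1* and *Ifitm3* rose by 2.23 and 1.47. *Lin28a*, an RNA-binding repressor of let-7 that is needed for PGC formation, was the 1 lower member at 162 to 168 CPM in ESCs and 65.7 to 90.6 CPM in D4PGCLCs (-1.09 ± 0.12). Without D4PGCLC replicate 3 it was no longer below the fold-change cutoff.

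Some late germ cell genes are silenced by promoter methylation in somatic cells and come on as PGCs reach the gonad. Members of the late list were higher in 17 of 21 tested and lower in none, with a median of 2.62. The count stayed at 17 without any single ESC or D4PGCLC replicate, without D6PGCLC replicate 1, and with another scaling, filter or test. The 17 include *Dppa3*, on which the cells were sorted. They also include *Gata3*, which had the largest change of the list (8.75 ± 0.55) and is on the trophoblast marker list as well. *Dazl*, an RNA-binding protein that licenses gametogenesis (chromosome 17, 50279395 to 50293636), measured 9.41 to 12.8 CPM in ESCs and 211, 137 and 211 CPM in D4PGCLCs (log2 fold change 4.08 ± 0.20 SE, adjusted p = 4.83e-12). *Ddx4*, the Vasa RNA helicase, measured 5.14, 4.87 and 5.43 CPM in ESCs and 51.6, 40.4 and 47.1 CPM in D4PGCLCs (3.17 ± 0.14). The sex-determination factor *Dmrt1* rose by 3.84 ± 0.17 to 59.4 to 75.4 CPM, and the germ cell transcription factor *Sohlh2* by 2.10 ± 0.13. In each of these 4 genes the lowest D4PGCLC sample was over 3 times the highest ESC sample. Lower in level, *Slc25a31*, the germ line ADP/ATP carrier, reached 3.04 to 5.41 CPM, *Taf7l* 2.89 to 5.64 CPM and *Ctcfl* 1.46 to 1.73 CPM. Ribosomal *Rpl10l*, *Hormad1*, *Boll* and *Tuba3a* were not called, at log2 fold changes of -0.43 to 0.79.

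Meiotic prophase genes split. Of 34 tested, 15 were higher, none was lower and 19 were not called, with a median of 0.86. *Stra8*, the retinoic acid-induced gatekeeper of meiosis, measured 1.5, 1.01 and 1.01 CPM in ESCs and 24.6, 24.4 and 34.1 CPM in D4PGCLCs (4.56 ± 0.29). *Meiob*, which binds single-stranded DNA in meiotic recombination, had 1 read in the ESC samples and 4.19 to 5.85 CPM in D4PGCLCs, a ratio of 411 (95% counting interval 73.4 to 16266.0). The meiotic cohesin *Smc1b* reached 47.8 to 73.7 CPM (3.45 ± 0.24). Synaptonemal complex genes *Sycp1* (3.33 ± 0.32), *Sycp2* (5.18 ± 0.68) and *Sycp3* (1.19 ± 0.21) were higher as well, although *Sycp2* and *Sycp3* stayed at or below 6.44 CPM. The mean of *Sycp2* was 2.38 CPM in EpiLCs and 2.41 CPM in D4PGCLCs. Several recombination genes were not called. The recombinase *Dmc1* measured 3.69 to 5.13 CPM in ESCs and 6.84 to 8.67 CPM in D4PGCLCs, *Spo11*, which makes the meiotic breaks, was at or below 0.302 CPM in every sample, and the hotspot factor *Prdm9* had a fitted difference of 0.41.

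Of 24 piRNA pathway genes tested, which encode the machinery that silences transposons in germ cells, 11 were higher, none was lower and 13 were not called, with a median of 1.01. The scaffold *Tdrkh* rose by 4.67 ± 0.23 to 12.9 to 17.0 CPM, *Mael* by 4.56 ± 0.29, the Tudor protein *Tdrd1* by 4.06 ± 0.34 and the helicase *Mov10l1* by 3.29 ± 0.16 to 24.7 to 29.2 CPM. Of the Piwi proteins, *Piwil2* rose by 2.60 ± 0.16 to 47.6 to 54.3 CPM and *Piwil4* by 2.09 ± 0.45, but the latter to no more than 1.17 CPM. *Piwil1* was not called. In EpiLCs the mean of *Piwil4* was 4.04 CPM, and D4PGCLCs were called lower than that, with a mean of 0.875 CPM. The mean of *Mael* was 9.55 CPM in EpiLCs and 8.86 CPM in D4PGCLCs. The call of *Gtsf1* (1.07 ± 0.30) was lost without D4PGCLC replicate 3 and with a replicate block.

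*Rhox* cluster and X-linked germ line genes were higher in 16 of 35 tested members and lower in 2 (1 without D4PGCLC replicate 2), with a median of 1.68. *Rhox5* reached 168 to 204 CPM from 4.6 to 5.07 CPM (5.25 ± 0.12), and at 246 RPKM it was the most abundant of the list. Its mean was already 139 CPM in EpiLCs, against which it was not called. *Usp26*, a germ line ubiquitin protease, reached 39.6 to 57.6 CPM and *Gm9* at least 19.5 CPM. *Magea4* (-1.87 ± 0.31) and *Nxf3* (-1.16 ± 0.19) were lower. The 6 *Xlr3* and *Xlr4* members tested were not called. Many members of these families have near-identical copies, and values that split reads between copies are uncertain. On the X chromosome as a whole, 144 of 684 tested genes (21.1%) were higher and 83 (12.1%) lower, against 10.3 to 18.2% higher on the autosomes.

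**Figure D2:**
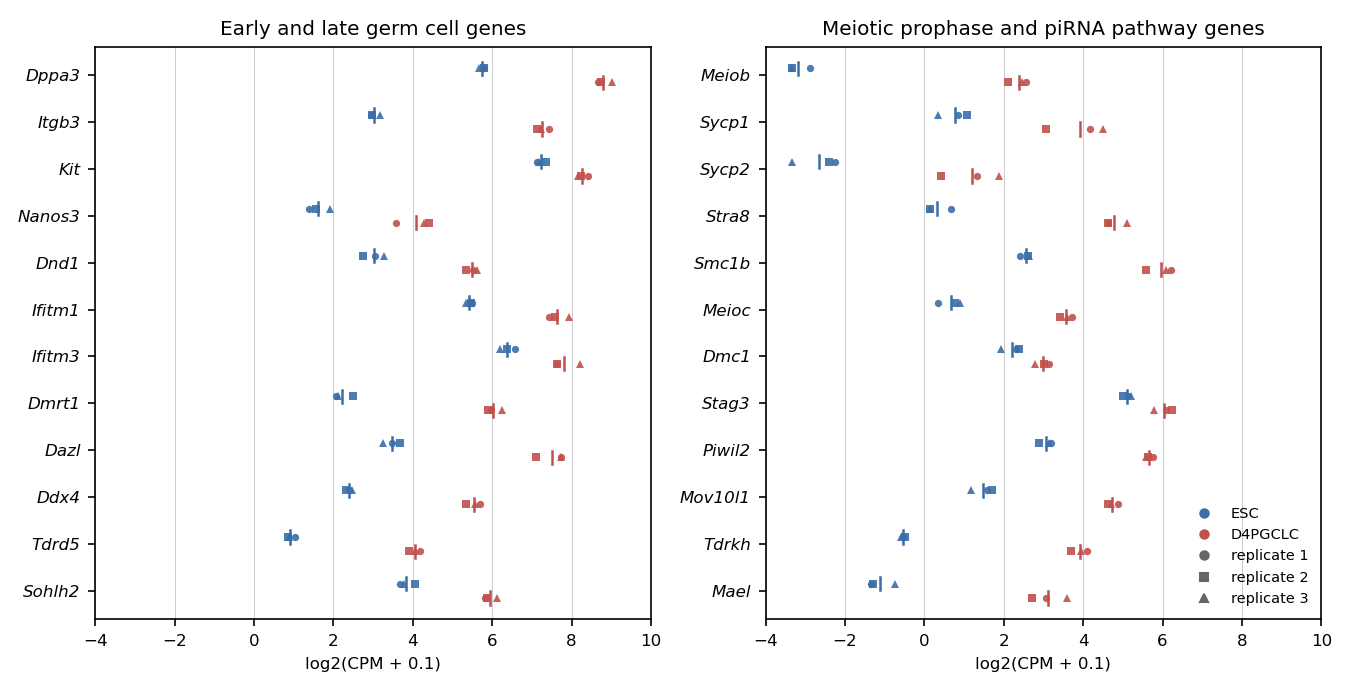
Expression of 12 early and late germ cell genes (left) and 12 meiotic prophase and piRNA pathway genes (right), as log2(CPM + 0.1), in 3 ESC (blue) and 3 D4PGCLC samples (red), with a symbol for each replicate and vertical ticks for group means. The groups do not overlap for any gene drawn, *Dmc1* and *Stag3* lie closest together without reaching the fold-change cutoff, and D4PGCLC replicate 2 is the lowest of its group for *Dazl*, *Sycp1* and *Smc1b*.

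Promoters of several of these genes are shown because 41 members of the late germ cell, meiotic and piRNA lists were higher and none was lower. The 41 include *Dppa3* and *Gata3*. Promoter sequences of 300 bases around the transcription start were taken from RefSeq (GRCm38.p6) by gene symbol. Of the 41 higher members, 35 had an entry, as had 26 of the 35 that were not called. The palindromic E-box CACGTG, the letters bound by MAX dimers such as those of the PRC1.6 complex, was searched, and the E2F-type motif GCGGGAA on both strands. CACGTG occurred in 12 of 35 promoters of higher members (34.3%), in 6 of 26 of members not called (23.1%) and in 7.15% of all 32851 promoters. Of all genes higher in D4PGCLCs, 1853 had an entry, and CACGTG occurred in 9.28% of these. GCGGGAA occurred in 11 (31.4%) and 5 (19.2%) of the list promoters, in 6.96% of the 1853 and in 4.6% of all. The median number of CpG dinucleotides was 20 among the promoters of higher members and 18 among those not called. It was 17 among the 1853 and 7 among all promoters. The 32851 were not reduced to 1 promoter per gene, as the other sets were. Below, capitals mark CACGTG in 5 promoters of members that were higher and in that of *Stag3*, a meiotic cohesin that was not called (0.93 ± 0.11).
Ddx4, chr13:112652261-112652560, minus strand: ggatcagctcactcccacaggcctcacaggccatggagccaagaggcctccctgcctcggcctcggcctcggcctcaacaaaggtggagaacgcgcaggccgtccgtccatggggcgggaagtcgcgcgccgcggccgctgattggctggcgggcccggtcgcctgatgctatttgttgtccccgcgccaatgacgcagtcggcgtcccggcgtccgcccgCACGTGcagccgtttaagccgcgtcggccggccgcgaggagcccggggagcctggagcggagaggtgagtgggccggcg
Slc25a31, chr3:40708621-40708920, plus strand: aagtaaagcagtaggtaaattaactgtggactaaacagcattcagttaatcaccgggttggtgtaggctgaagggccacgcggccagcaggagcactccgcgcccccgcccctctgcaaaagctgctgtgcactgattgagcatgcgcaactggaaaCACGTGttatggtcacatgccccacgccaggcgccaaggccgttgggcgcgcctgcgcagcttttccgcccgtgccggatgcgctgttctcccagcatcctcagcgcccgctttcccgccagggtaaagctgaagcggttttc
Mael, chr1:166238695-166238994, minus strand: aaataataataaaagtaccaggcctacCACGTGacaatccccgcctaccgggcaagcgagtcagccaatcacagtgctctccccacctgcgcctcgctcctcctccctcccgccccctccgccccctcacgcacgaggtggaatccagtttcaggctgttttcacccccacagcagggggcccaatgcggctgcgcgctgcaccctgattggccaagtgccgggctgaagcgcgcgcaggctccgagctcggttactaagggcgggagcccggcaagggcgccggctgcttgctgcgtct
Mov10l1, chr15:88982744-88983043, plus strand: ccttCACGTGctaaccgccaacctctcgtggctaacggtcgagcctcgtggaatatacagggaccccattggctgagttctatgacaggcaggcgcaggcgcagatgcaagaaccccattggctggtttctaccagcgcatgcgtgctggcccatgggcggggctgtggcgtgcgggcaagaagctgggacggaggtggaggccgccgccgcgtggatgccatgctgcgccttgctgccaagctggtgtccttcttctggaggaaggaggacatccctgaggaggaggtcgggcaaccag
Taf7l, chrX:134476441-134476740, minus strand: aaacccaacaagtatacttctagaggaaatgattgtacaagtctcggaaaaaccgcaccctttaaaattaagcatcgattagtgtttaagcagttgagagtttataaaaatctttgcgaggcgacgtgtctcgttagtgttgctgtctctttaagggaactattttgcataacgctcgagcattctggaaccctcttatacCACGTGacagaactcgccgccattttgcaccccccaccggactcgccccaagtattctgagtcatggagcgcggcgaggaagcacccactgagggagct
Stag3, chr5:138280259-138280558, plus strand: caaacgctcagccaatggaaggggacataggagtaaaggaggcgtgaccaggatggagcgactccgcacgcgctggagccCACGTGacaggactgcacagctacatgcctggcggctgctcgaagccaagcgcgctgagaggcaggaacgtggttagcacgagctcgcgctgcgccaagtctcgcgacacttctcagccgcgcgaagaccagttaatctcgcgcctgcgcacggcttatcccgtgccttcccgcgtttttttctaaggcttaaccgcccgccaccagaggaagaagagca
A match is a description of the letters and not a bound site. ATCAAAG, the core of the TCF motif, occurred in 1 of 7 WNT target members lower in D4PGCLCs that had an entry (*Sp5*), and in 3.73% of all promoters. CACCCCAC, a part of sterol response elements, occurred in 0 of 10 cholesterol synthesis members with an entry that were lower and in 2.87% of all promoters, which says only that these letters are not in these windows.

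Over the 5 germ line lists together, 128 genes were tested. Against ESCs, 69 of them were higher (53.9%) and 3 lower (2.34%) in D4PGCLCs. The 69 include the transgene factors *Prdm1*, *Prdm14* and *Tfap2c*, the gene used for sorting, *Dppa3*, and *Gata3*, also a trophoblast marker. Against EpiLCs, 49 were higher and 9 lower, where 14.0% of all tested genes were higher and 12.8% lower. Several members named above as higher than in ESCs were not called against EpiLCs. Among these were *Dmrt1*, *Sohlh2*, *Taf7l*, *Sycp1*, *Sycp2*, *Sycp3*, *Mael*, *Tdrd1*, *Usp26* and *Rhox5*. *Piwil4*, *Ctcfl* and *Lin28a* were among the 9 that were lower than in EpiLCs. Compared to D2PGCLCs, 23 members were higher and none lower, with 2.56% of all genes higher and 0.376% lower. Compared to D6PGCLCs, 4 members were higher and 14 lower, with 0.785% of all genes higher and 2.29% lower. Without D6PGCLC replicate 1, an alternative chosen after seeing the data, 4 members were higher and 13 lower, against 0.505% and 1.68% of all genes. These comparisons share the D4PGCLC samples. *Dazl* was 2.25 (log2) above D2PGCLCs and -1.20 below D6PGCLCs, where its mean was 428 ± 58.9 CPM (SD, n = 3). *Stra8* was 1.48 above D2PGCLCs and -2.52 below the 159 ± 32.6 CPM of D6PGCLCs. *Dnd1* went the other way and was 1.26 above D6PGCLCs, as were *Rhox6* and *Rhox9* (1.09 and 1.06). *Dppa3* differed from neither day by test, at -0.01 and -0.09.

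Naive pluripotency genes were lower in 9 of 27 tested members, higher in 4 and not called in 14, with a median of -0.23. The share that was higher lay near the 13.9% over all genes. *Klf4*, a target of LIF and STAT3, measured 171, 177 and 170 CPM in ESCs and 10.5, 13.5 and 13.9 CPM in D4PGCLCs (log2 fold change -3.77 ± 0.15 SE, adjusted p = 5.01e-13). *Jam2*, *Tfcp2l1* and *Tbx3* fell by 3.12, 2.35 and 2.04 on the log2 scale. Other pillars of the naive network were not called, among them *Esrrb* at 583 to 600 CPM in ESCs and 475 to 560 CPM in D4PGCLCs, *Klf2*, *Klf5* and *Nr5a2*. *Zfp42* was not called either, although it lay at 494 to 506 CPM in ESCs and 268 to 300 CPM in D4PGCLCs (-0.81), without overlap. *Sox15* (2.93 ± 0.17), *Pecam1* (1.83 ± 0.08), *Nr0b1* and the transgene factor *Prdm14* were higher. *Dppa5a* had the highest level per length, at 1012.6 RPKM in ESCs and 1814.6 in D4PGCLCs, with a log2 fold change of 0.84 under the cutoff.

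Core pluripotency genes stayed mostly uncalled, with 4 of 19 higher, 2 lower (1 without D4PGCLC replicate 3) and 13 not called. The share that was lower lay near the 10.9% over all genes. *Pou5f1* measured 975 to 1090.9 CPM in ESCs and 876 to 1088.9 CPM in D4PGCLCs (-0.01, adjusted p = 0.926), and the groups overlapped. *Utf1*, a chromatin factor of pluripotent and germ cells, rose by 2.11 ± 0.13, and *Dppa4* by 1.45 ± 0.10. *Tdgf1*, the Nodal co-receptor, fell by 1.53 with an SE of 0.28, and D4PGCLC replicate 2 lay at 280 CPM against 146 and 129 CPM in the others. Of 24 formative and primed genes, 6 were higher, 5 lower and 13 not called. Among those that were higher, *Otx2* reached 4.01 to 9.19 CPM against a mean of 109 CPM in EpiLCs, and *Fgf5* at most 0.606 CPM against 58.5 CPM. The claudin *Cldn6* reached 20.9 to 25.5 CPM against 46.3 CPM in EpiLCs, and *Sox4* reached 11.9 to 17.6 CPM.

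WNT target genes were lower in 10 of 25 tested members, higher in 4 and not called in 11, with a median of -0.64. ESCs were kept with the GSK3 inhibitor, which activates this pathway, and D4PGCLCs were not. What part this had in the changes was not tested. *Axin2*, the feedback inhibitor and most general target, measured 142, 137 and 140 CPM in ESCs and 9.0, 14.5 and 8.68 CPM in D4PGCLCs (-3.70 ± 0.21). EpiLC means were 16.8 CPM for *Axin2*, 0.248 CPM for *T*, 0.397 CPM for *Sp5* and 119 CPM for *Fzd7*. *Cdx1* fell by 3.69 on the log2 scale and the ligand *Wnt5b* fell by 3.57, beside *T* and *Sp5* above. *Fzd7*, a WNT receptor, rose by 2.16 ± 0.10 and *Wnt3* by 2.37 ± 0.48 to at most 2.09 CPM. *Lef1*, *Tcf7* and *Tcf7l1*, which encode the pathway's DNA-binding factors, were not called. Without single replicates the number of lower members varied between 7 and 11.

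ERK feedback and response genes were higher in 6 of 27 tested members, lower in 3 and not called in 18, with a median of 0.16. The share that was lower lay near the 10.9% over all genes. The MEK inhibitor was in the ESC medium only, and its part in the changes was not tested. *Dusp4*, a dual-specificity phosphatase that switches ERK off, measured 2.88, 1.67 and 3.28 CPM in ESCs and 155, 153 and 141 CPM in D4PGCLCs (5.81 ± 0.18, adjusted p = 1.94e-14). *Dusp6* rose by 3.92 ± 0.11 and *Dusp5* by 2.96, and the immediate early factor *Egr1* by 3.73 ± 0.43 to 4.0 to 5.03 CPM. In EpiLCs the mean was already 63.0 CPM for *Dusp4* and 69.6 CPM for *Dusp6*, against 149 and 59.3 CPM in D4PGCLCs. *Dusp1* was not called, at 82.0 to 82.8 CPM in ESCs and 55.5 to 66.6 CPM in D4PGCLCs (-0.40). The Sprouty genes *Spry1*, *Spry2* and *Spry4* and the ETS factors *Etv1*, *Etv4* and *Etv5* were not called. *Epha4*, a receptor tyrosine kinase, fell by 3.15 on the log2 scale and *Myc* by 1.73.

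Genes of the LIF and STAT3 pathway were lower in 6 of 21 tested members, higher in 3 and not called in 12, with a median of -0.10. The share that was higher lay near the 13.9% over all genes. LIF was given to ESCs only, and its part in the changes was not tested. *Socs3*, the STAT3 feedback inhibitor, measured 99.4, 92.5 and 99.4 CPM in ESCs and 7.19, 19.9 and 6.24 CPM in D4PGCLCs (-3.13 ± 0.40), with replicate 2 the highest. Its mean in EpiLCs was 6.49 CPM. *Stat3* itself fell by 2.30 with an SE of 0.09, and *Bcl3* by 2.66. The receptor genes *Lifr* and *Il6st* were not called.

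Nodal pathway genes were higher in 4 of 18 and lower in 1, and BMP response genes higher in 5 of 22 and lower in 2. *Lefty1* rose by 1.73 ± 0.15 to 86.3 to 105 CPM, and *Nodal* was not called. *Id2* rose by 3.01 ± 0.21, whereas the general BMP targets *Id1* and *Id3* were not called, at log2 fold changes of -0.05 each. Of 21 retinoic acid genes, 6 were higher and 1 lower (3 without D4PGCLC replicate 2). Beside *Stra8*, *Lrat*, which stores retinol as ester, rose by 5.66 ± 0.61 to 2.59 to 3.06 CPM and the retinoic acid-degrading *Cyp26a1* by 3.56 ± 0.64 to at most 0.633 CPM.

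**Figure D3:**
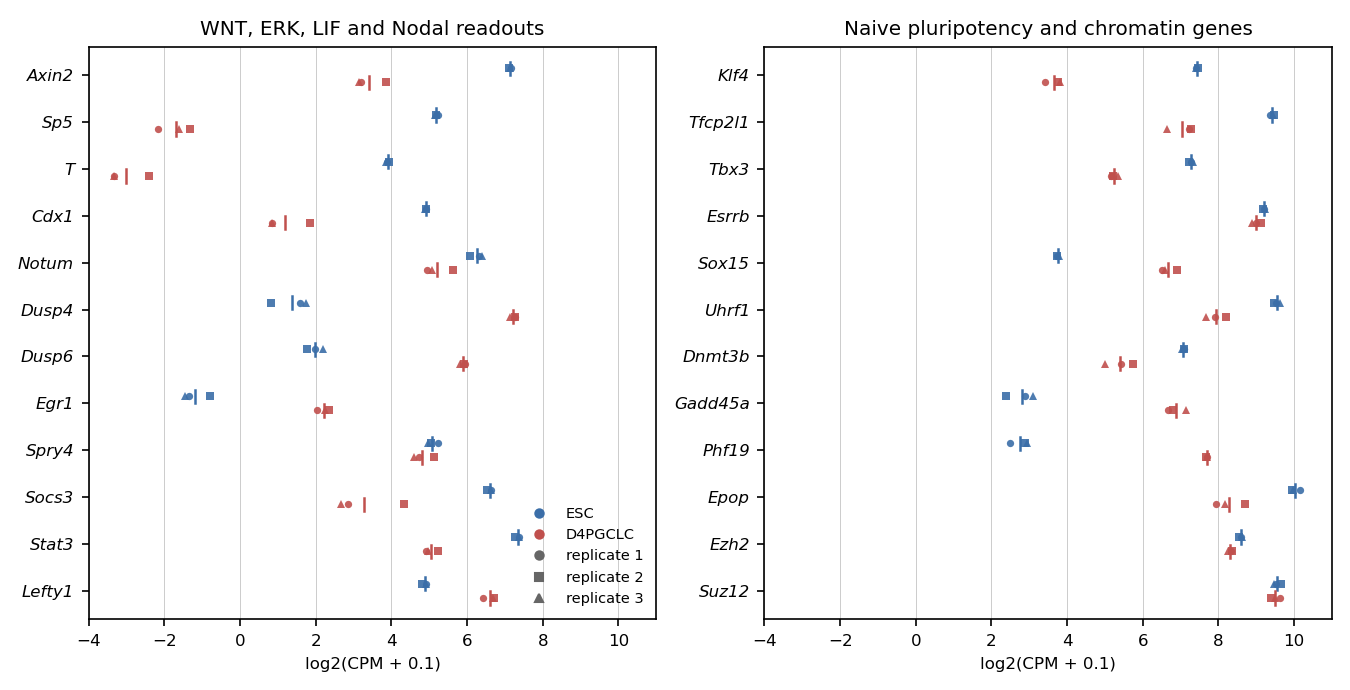
Expression of 12 readouts of the WNT, ERK, LIF and Nodal pathways (left) and of 12 naive pluripotency and chromatin genes (right), as log2(CPM + 0.1), in 3 ESC (blue) and 3 D4PGCLC samples (red), with a symbol per replicate and vertical ticks for group means. *Axin2*, *Sp5*, *T* and *Cdx1* lie lower and *Dusp4*, *Dusp6* and *Egr1* higher in D4PGCLCs without overlap, while *Spry4* and *Suz12* overlap between the groups.

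Among the DNA methylation machinery, 3 of 21 tested genes were higher, 3 lower and 15 not called. These counts lie near the shares over all genes, 13.9% higher and 10.9% lower. *Uhrf1*, which recruits the maintenance methyltransferase to replicating DNA, measured 740, 708 and 785 CPM in ESCs and 239, 292 and 205 CPM in D4PGCLCs (-1.60 ± 0.10, adjusted p = 3.48e-10). The de novo enzyme *Dnmt3b* fell by 1.65 on the log2 scale and the dioxygenase *Tet2* by 1.39. *Gadd45a*, which is linked to DNA repair and demethylation, rose by 4.06 ± 0.19 to 102 to 140 CPM, and *Uhrf2* by 1.44 ± 0.08. In EpiLCs the mean was already 78.5 CPM for *Gadd45a* and 76.8 CPM for *Uhrf2*. *Dnmt1*, *Dnmt3a*, *Dnmt3l* and *Tet1* were not called.

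Of 13 PRC2 genes, 1 was higher and 1 lower. *Phf19*, a subunit that brings PRC2 to CpG islands (chromosome 2, 34893757 to 34914026), measured 5.47, 7.23 and 7.54 CPM in ESCs and 209, 202 and 206 CPM in D4PGCLCs (4.93 ± 0.11, adjusted p = 3.11e-16). *Epop*, another accessory subunit, measured 1148.6, 980 and 998 CPM in ESCs and 243, 418 and 290 CPM in D4PGCLCs (-1.72 ± 0.17). The core genes *Ezh2*, *Suz12* and *Eed* were not called, although *Eed* lay at 253 to 270 CPM in ESCs and 134 to 136 CPM in D4PGCLCs. *Phf19* was 1.01 above D6PGCLCs and -0.26 from D2PGCLCs, which was not called.

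PRC1.6 is the Polycomb complex with *Mga*, *Max*, *E2f6* and *Pcgf6* that keeps germ line genes silent in ESCs. Of 15 genes, 1 was higher, *Ring1* (1.18 ± 0.21), and that call was lost without D4PGCLC replicate 3. *Mga* measured 382 to 421 CPM in ESCs and 152 to 268 CPM in D4PGCLCs, with a log2 fold change of -0.96 just inside the cutoff. *E2f6* differed by 0.67 and *Pcgf6* by -0.25. Of 22 enzymes and partners of histone H3K9 methylation, *Suv39h1* (1.48 ± 0.13) was called, and *Ehmt1*, *Ehmt2* and *Setdb1* were not.

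Imprinted genes moved in both directions, with 9 of 35 higher, 8 lower and 18 not called and a median of -0.007. *Peg3* rose by 1.92 ± 0.14 to 493 to 800 CPM, *Peg10* by 2.65 ± 0.35 and the amino acid transporter *Slc38a4* by 1.51 ± 0.07. The 3 noncoding genes of the *Dlk1*-*Meg3* domain, *Meg3*, *Rian* and *Mirg*, fell by 2.59, 2.97 and 2.0 on the log2 scale. *Kcnq1ot1*, which overlaps *Kcnq1* in antisense, fell by 2.54. How the counting treated strand is not given in the sources used here, so reads of such overlapping genes may be shared.

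*Hox* genes were scarce in both groups. Of 39 genes, 18 passed the filter on low counts. Of these 12 were lower, none was higher and 6 were not called, with a median of -2.88 that holds only for these 18. *Hoxc12* and *Hoxc10* had means of 0 CPM in EpiLCs, D2PGCLCs and D4PGCLCs and at most 0.0357 CPM in D6PGCLCs. They passed the filter through ESCs alone and could be called only lower. The count and the median are thus in part fixed by the filter. *Hoxc12* measured 2.3, 1.97 and 3.15 CPM in ESCs and had no read in D4PGCLCs, which makes it at least 27.8-fold lower against a floor of 3 counts. *Hoxc13* fell by 3.89 and *Hoxd13* by 4.28 on the log2 scale, from at most 7.85 and 5.36 CPM.

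Cholesterol synthesis and uptake genes were called in 1 direction. Of 24 tested, 15 were lower, none was higher and 9 were not called, with a median of -1.17. The summed level of the list fell from 3638.7 to 3731.2 CPM in ESCs to 1657.5 to 2113.9 CPM in D4PGCLCs. *Insig1*, the sterol-regulated protein that retains the SREBP complex in the endoplasmic reticulum, measured 320, 328 and 316 CPM in ESCs and 61.8, 84.2 and 55.0 CPM in D4PGCLCs (-2.26 ± 0.17). Each D4PGCLC sample lay below every ESC sample. *Dhcr7*, which makes the last step to cholesterol, fell by 1.89 on the log2 scale. The controlling factor *Srebf2* was not called. *Fdps* fell by 2.91 from at most 8.24 CPM, and its pseudogenes make this value uncertain.

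The calls of glycolysis genes depended on single libraries. Of 25 tested, 5 were lower, 1 was higher and 19 were not called. The summed level was 16906.3 to 17851.8 CPM in ESCs, and in D4PGCLCs 17171.3 CPM in 1 sample and 10000.7 and 11009.1 CPM in the other 2. *Ldha*, which makes lactate, measured 1187.7, 1160 and 1183.9 CPM in ESCs and 242, 698 and 143 CPM in D4PGCLCs (-1.71 ± 0.53), with replicate 2 the highest of its group. The lactate exporter *Slc16a3* measured 184 to 206 CPM in ESCs and 31.2, 141 and 6.24 CPM in D4PGCLCs (-1.70, adjusted p = 0.124). Without D4PGCLC replicate 2, 11 of the 25 were lower in place of 5, and without D4PGCLC replicate 1 there were 3. What sets replicate 2 apart was not tested. *Ldhb*, the heart-type subunit, was the higher member, at 139 to 151 CPM in ESCs and 611 to 809 CPM in D4PGCLCs (2.23 ± 0.13), without overlap.

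Of 73 nuclear oxidative phosphorylation genes, 2 were higher and 1 lower, with a median of 0.085, and the 3 were the subunit isoforms *Cox6a2*, *Cox6b2* and *Cox4i2*. Of 13 mitochondrially encoded genes 1 was higher (*mt-Nd3*). *Cox6b2*, a testis isoform, measured 16.7 to 21.2 CPM in ESCs and 33.4 to 74.8 CPM in D4PGCLCs. Amino acid stress genes controlled by ATF4 were higher in 5 of 23 tested members and lower in none, led by *Chac1* (2.22 ± 0.38) and *Slc7a11* (1.96 ± 0.69).

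**Figure D4:**
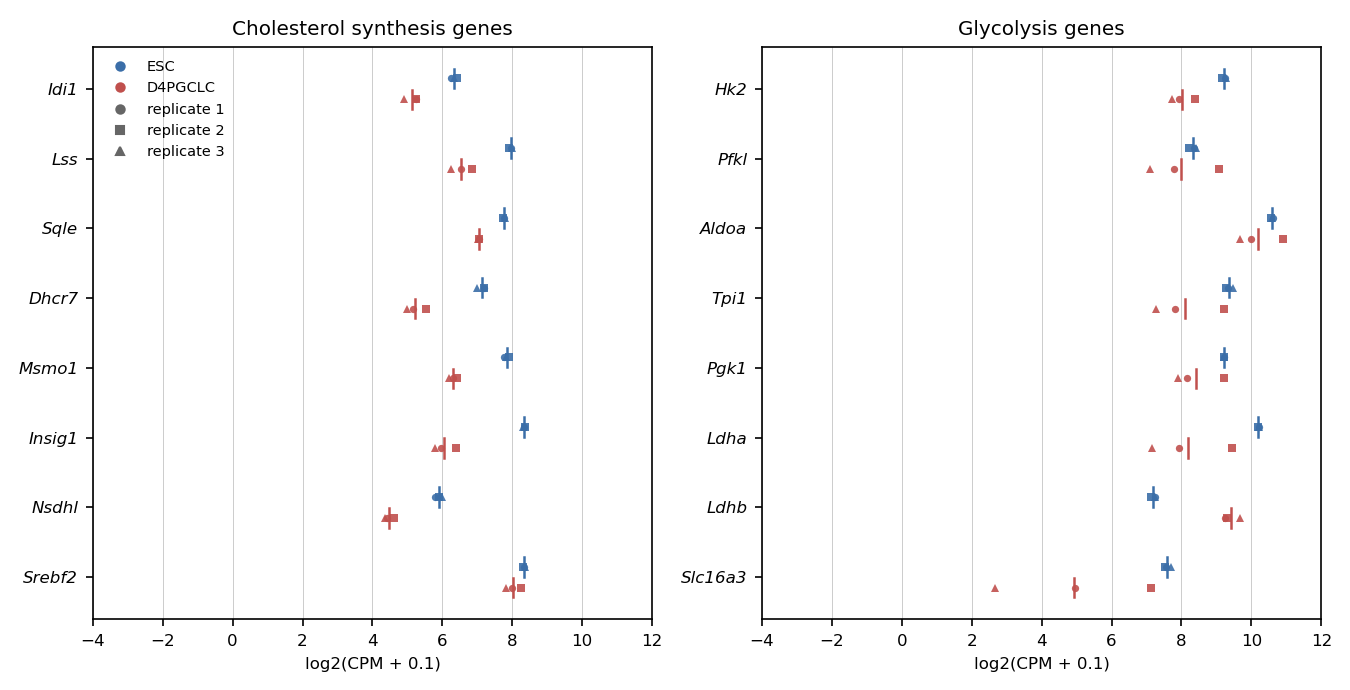
Expression of 8 cholesterol synthesis genes (left) and 8 glycolysis genes (right), as log2(CPM + 0.1), in 3 ESC (blue) and 3 D4PGCLC samples (red), with a symbol per replicate and vertical ticks for group means. Each cholesterol gene lies below the ESC samples in every D4PGCLC sample (*Srebf2* and *Sqle* were not called), while D4PGCLC replicate 2 (square) stands apart from replicates 1 and 3 for *Ldha*, *Tpi1*, *Pgk1* and *Slc16a3*.

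Of 29 cell cycle and MYC family genes, 2 were higher, 6 lower and 21 not called. *Ccnd1* measured 136 to 139 CPM in ESCs and 18.4 to 26.5 CPM in D4PGCLCs (-2.66 ± 0.12), whereas *Ccnd3* rose by 1.39 ± 0.08 to 286 to 358 CPM. *Cdk6*, their partner kinase, fell by 2.26 on the log2 scale and the retinoblastoma gene *Rb1* rose by 2.53 ± 0.17. Of 19 p53 targets, 4 were higher and 1 lower. The CDK inhibitor *Cdkn1a* fell by 2.27, while *Perp* (4.18 ± 0.26), *Bbc3* (1.38 ± 0.22) and *Mdm2* (1.05 ± 0.08) rose. The proliferation marker *Mki67* and the mitotic *Cdk1* were not called, at 0.12 and 0.11.

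Of 27 adhesion genes, 11 were higher, 3 lower and 13 not called, with a median of 0.62. P-cadherin *Cdh3* rose by 3.43 ± 0.12 from at most 12.9 CPM to 127 to 135 CPM, and E-cadherin *Cdh1* lay at 535 to 541 CPM in ESCs and 224 to 301 CPM in D4PGCLCs (-1.04 ± 0.09). *Epcam* and the claudin *Cldn7* rose by 1.74 and 2.48. Collagens and laminins were called in both directions, 7 higher and 8 lower of 29, with *Col18a1* at 118 to 135 CPM in ESCs and 678 to 746 CPM in D4PGCLCs and the laminin chain *Lama1* falling by 2.57. MHC class I and antigen processing genes were lower in 6 of 19 and higher in 3, or in 1 without ESC replicate 2 or D4PGCLC replicate 3. *H2-D1* and *H2-Q4* fell by 2.09 and 2.24, with the caution that reads of these near-identical genes may be split.

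Genes of the 2-cell-like state, which marks rare cells in ESC cultures, were lower in 5 of 16 tested members and higher in none, all of them *Zscan4* copies at or below 1.09 CPM in ESCs, between which reads may be split. Without D4PGCLC replicate 2, and by DESeq2, 8 were lower. Replication-dependent histone genes were lower in 3 of 16, a count that was not stable: it was 1 without ESC replicate 1 or D4PGCLC replicate 1, 7 without D6PGCLC replicate 1 and 9 in a fit of the 6 samples alone.

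Marker lists of other cells were checked, since the cultures or the sort could hold them. Mesoderm markers were lower in 4 of 12 and higher in 1, endoderm lower in 3 of 12 and higher in 4, and neuroectoderm lower in 4 of 13 and higher in 3. Their summed levels in D4PGCLCs were 29.4 to 42.4 CPM (ESCs 50.3 to 52.0), 18.0 to 25.4 CPM (13.6 to 14.5) and 116 to 139 CPM (342 to 366), respectively. The number of lower mesoderm markers was not stable. It ranged from 2 to 6 under the alternatives that kept the fold-change cutoff, and was 2 without ESC replicate 1 or D4PGCLC replicate 1. The markers that rose were *Hand1* of mesoderm (3.52 ± 0.36, to at most 4.22 CPM), *Dab2* (4.10 ± 0.35, to at most 7.79 CPM), *Cxcr4*, *Gata6* (2.48 ± 0.51, to at most 2.12 CPM) and *Sox7* (1.62 ± 0.56) of endoderm, and *Pax6* (2.79 ± 0.30, to at most 10.0 CPM), *Neurog1* (4.21 ± 0.76) and *Dll1* (3.42 ± 0.54, to at most 1.4 CPM) of neuroectoderm. *Sox17* was not called. *Ttr*, *Neurog2* and *Dcx* had no read in either group, and *Olig2* had none in D4PGCLCs and 1 in ESCs.

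Trophoblast markers were higher in 6 of 15 and lower in 3, with summed levels of 117 to 132 CPM in D4PGCLCs and 115 to 117 CPM in ESCs. *Gata3* (ratio 569, 95% counting interval 102 to 22491.0) reached 5.84 to 8.74 CPM, *Gcm1* 6.01 to 8.79 CPM and the X-linked *Esx1* 20.9 to 24.8 CPM (4.25 ± 0.19), while *Cdx2*, *Tfap2a* and *Krt8* fell by 3.40, 3.92 and 2.45 on the log2 scale. *Krt7* had 3 reads in ESCs and 331 in D4PGCLCs (ratio 87.4, 95% counting interval 29.6 to 426). *Elf5* had 1 and 100 reads (ratio 79.2, 13.9 to 3159.0). *Tpbpa* and *Prl3d1*, which define mature trophoblast, had no read in either group. Fibroblast markers were higher in 3 of 9 and lower in 2, at summed levels of 12.7 to 19.1 CPM against 14.4 to 15.8 CPM, and without ESC replicate 3 or D4PGCLC replicate 1 only 1 was lower. *Acta2* reached 1.0 to 1.43 CPM from 1 read in ESCs (ratio 97.4, 95% counting interval 17.2 to 3878.5), *Fbn1* rose by 1.12 ± 0.22 to at most 12.9 CPM and *Col1a2* by 1.71 ± 0.66 to at most 0.606 CPM. *Dcn*, *Twist2* and *S100a4* had no read in either group, and *Lum* had none in D4PGCLCs and 5 in ESCs. Whether such cells contribute to any of the changes was not tested.

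**Figure D5:**
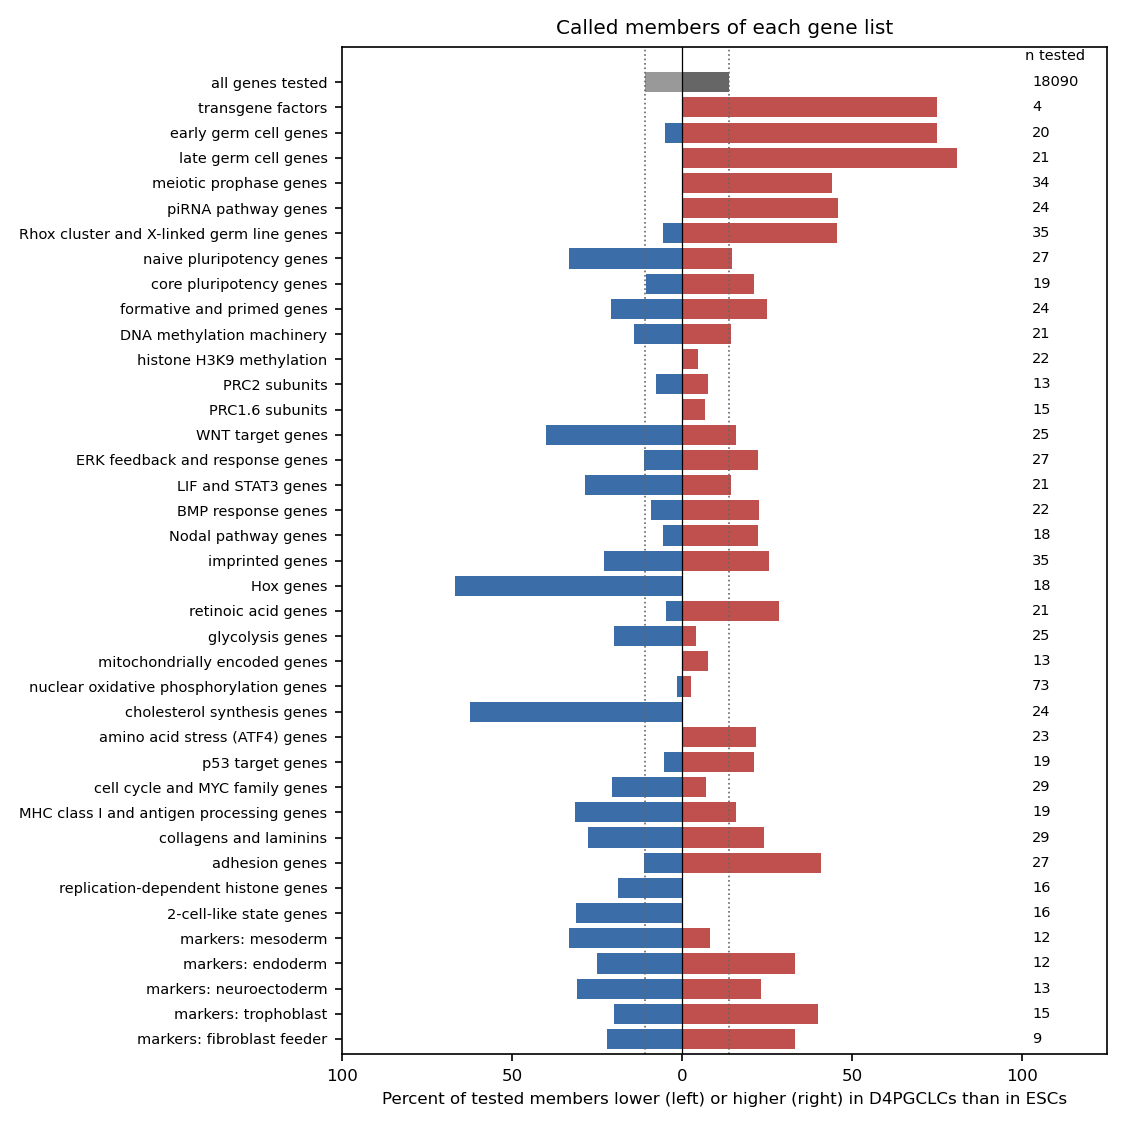
Percent of the tested members of each gene list that were higher (right) or lower (left) in D4PGCLCs than in ESCs, with the number tested on the right and dotted lines at 13.9% higher and 10.9% lower, the values over all 18090 genes. Late germ cell, early germ cell and transgene factor lists reach furthest to the right, and *Hox* and cholesterol synthesis lists furthest to the left. Of the *Hox* genes only 18 of 39 were tested, some of which passed the filter through ESCs alone. The early germ cell list includes *Prdm1*, *Prdm14* and *Tfap2c*, and both germ cell lists include *Dppa3*.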

How the data were processed

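The authors deposited a table of unnormalized read counts for 15 samples, by ENSEMBL gene identifier. Per the labels and the submitters' processing notes, reads were trimmed with Trim Galore and aligned with STAR to mm10; libraries were made with a directional kit. The counting tool, strand setting, annotation release and treatment of multi-mapping reads are not given in the sources used here. All 55536 identifiers were matched to GENCODE M21 for symbols, coordinates and exon lengths.

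Samples were grouped by their labels. Counts were tested with edgeR 4.0.16 (R 4.3.3): TMM, filterByExpr (10 counts) and a quasi-likelihood fit in which all 15 samples entered and each group had its own mean. P-values were adjusted by Benjamini-Hochberg across 18090 genes. A gene was called at an adjusted p below 0.05 if it differed by more than 1 log2 unit. CPM used TMM library sizes, RPKM the union exon length. The script was tested on simulated data. A fold against a group with 0 reads was taken from a floor of 3 counts per library. Alternatives were DESeq2 1.42.0, its size factors, no filter, a replicate block, 6 samples only, no fold cutoff, and leaving out each ESC and D4PGCLC replicate and D6PGCLC replicate 1 in turn.

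The members and lists were chosen with earlier results of these data known. Named were the 12 highest and 12 lowest protein-coding changes and 5 noncoding ones (mean of at least 100 counts, 10 CPM in the higher group, no overlap), the transgene factors, genes named in the study, and from each list the 2 highest and 2 lowest called members, the most abundant and uncalled defining members. Other genes were named after their values were seen. Results for some genes are not reported here.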

Additional observations from a re-analysis of the deposited data

How the results depend on the processing

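The counts of 2518 higher and 1963 lower genes moved by over 1.5 times only when the fold-change cutoff was dropped, to 4873 and 4320. Under the other alternatives they stayed between 2329 and 2706 and between 1732 and 2211, and leaving out single ESC or D4PGCLC replicates or D6PGCLC replicate 1 gave 2359 to 2706 higher and 1732 to 2211 lower genes. DESeq2 called 2520 and 2100, and the fit of 6 samples 2329 and 2053. With the replicate block, 2496 genes were higher and 1961 lower. Deviations of samples with the same replicate number correlated at -0.027, -0.017 and -0.013, so the numbers did not pair the samples. The replicate block did not change the direction of a called gene among those named. *Wnt5a*, at most 0.438 CPM and not called (-0.20), changed sign with the replicate block (0.06), without ESC replicate 1 (2.67) and without D4PGCLC replicate 3 (0.06), and ranged from -0.73 to 2.67 without single replicates. Of 194 named genes, 16 lost their call without D4PGCLC replicate 3 and 14 each without D4PGCLC replicate 1 and ESC replicate 1. Depth limits genes near the floor of 3 counts, 0.0859 to 0.132 CPM.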
